A study of Homo sapiens with 4 samples.

Results

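ERG belongs to the ETS family of transcription factors, and 10 members of that family were followed here on arrays of LNCaP cells with and without an ERG virus: ERG, FLI1, ETV1, ETV4, ETV5, ETS1, ETS2, SPDEF, EHF and ELF3. They were taken by gene symbol, in a list drawn up with earlier results of these data known, and every probe set that the platform annotation assigns to 1 of these symbols alone was taken. All 10 were measured, by 40 of the 39464 probe sets tested, which cover 19583 genes. LNCaP is an androgen-responsive human prostate tumour cell line. The tested group was LNCap ERG (2 arrays), cells that received a lentivirus for ERG, and the control was LNCap Vector (2 arrays), cells that received the control lentivirus. In the study's methods the first virus carries ERG with red fluorescent protein and the second the fluorescent protein alone. Both groups were grown in the same medium and seeded the day before RNA extraction, with no other agent. The labels do not tie the 2 arrays of a group to different transductions or cultures. Every p-value therefore rests on array-to-array spread that could be purely technical. LNCap ERG and LNCap Vector are used as labels throughout, because the ERG probe sets, described below, do not bear out which cells received ERG.

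ETS factors share a DNA-binding domain, the ETS domain, which recognises DNA around a GGAA core. ERG and its close relative FLI1 normally act in endothelium and blood cells, ETV1, ETV4 and ETV5 form the PEA3 group, whose activity is raised by ERK signalling, and SPDEF, EHF and ELF3 are factors of epithelia. ERG, ETV1, ETV4 and ETV5 are each known as partners of gene fusions in prostate cancer. In LNCaP itself ETV1 is the rearranged ETS gene.

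A probe set is a group of short array probes that read 1 stretch of a transcript, and its value is given as a log2 intensity. Levels of different probe sets are not comparable with each other, because probes differ in brightness. As a guide to what an unused gene reads, the brightest probe sets of 35 genes of other organs were used, with a median of 3.25 and a 95th percentile of 6.62 in log2 intensity. That percentile rested on MB and MBP, at 10.8 and 8.16, and was 5.41 over the other 33 genes, a step chosen after their values were seen. Of the 40 probe sets of the ETS factors, 10 averaged above 6.62, and they belong to ETV1, SPDEF, EHF and ELF3. Those averaging between 5.41 and 6.62 belong to ETV1, SPDEF and ELF3 as well. The probe sets of ERG, FLI1, ETV4, ETV5, ETS1 and ETS2 read from 2.65 to 4.94 on all 4 arrays.

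**Figure D1:**
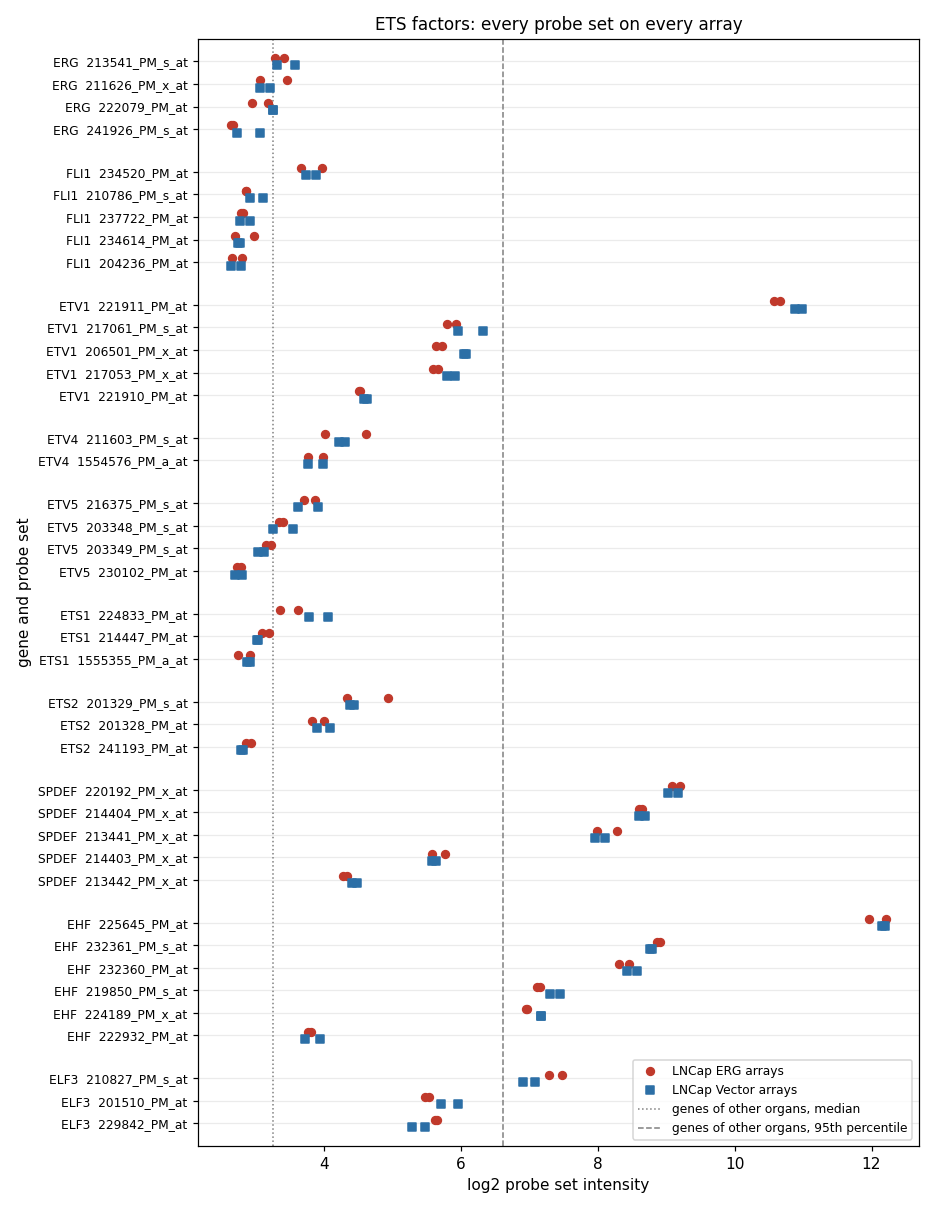
Log2 probe set intensity (x axis) of every probe set of the 10 ETS factors (y axis, ordered by gene and brightness). Circles are the 2 LNCap ERG arrays, squares the 2 LNCap Vector arrays, and the dotted line marks the median (3.25) and the dashed line the 95th percentile (6.62) of the genes from other organs. The probe sets to the right of the dashed line belong to ETV1, SPDEF, EHF and ELF3.

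The arrays themselves were alike. Differences between 2 arrays of 1 group had an SD of 0.20 on the log2 scale in both groups, and those between arrays of different groups had an SD of 0.20 to 0.25. Of 9 luminal prostate genes measured, 8 averaged above 6.62, with KLK3 (prostate-specific antigen) at 12.8 to 13.0. Their summed linear intensity was lower in both LNCap ERG arrays (28024 and 28104) than in the LNCap Vector arrays (28539 and 29134). Within the list the prostatic phosphatase ACP3 was higher without overlap (log2 fold change 0.56, adjusted p = 0.41), as was FOLH1 (0.08), and the kallikrein KLK2 (-0.29), TMPRSS2 (-0.20) and KLK3 (-0.13) were lower without overlap. None of 3 basal or 7 endothelial markers averaged above 6.62, and of 6 blood cell and 6 fibroblast markers 1 each did (LCP1 and COL1A1). The summed linear intensity of the endothelial list was 129 to 140 in LNCap ERG arrays and 111 to 125 in LNCap Vector arrays. That of the blood cell list was 421 to 479 and 523 to 557, and that of the fibroblast list 471 to 503 and 378 to 393, in the same order of groups. LCP1 and COL1A1 make up most of these sums, and every other member of both lists read under 4.7. LCP1 was lower (-0.30) and COL1A1 higher (0.38) in LNCap ERG without overlap, while COL1A2 was lower (-0.21) and PDGFRB higher (0.20). The basal list summed to 27.0 to 27.5 in LNCap ERG arrays and 26.5 to 28.8 in LNCap Vector arrays. In the endothelial list VWF (0.30), PECAM1 (0.32), TEK (0.32) and TIE1 (0.10) were higher in LNCap ERG without overlap, and CDH5, KDR and CLDN5 overlapped. The adjusted p-values of the first 4 were 0.57 to 0.80 from limma. Groups without overlap were common, with 21.7% of all genes higher and 19.1% lower in this way, which applies to all these marker lists. CDH5, PTPRC and CD3E, which define endothelium, blood cells and T cells, read 2.84 to 2.88, 2.88 to 2.96 and 3.06 to 3.72. The part of these markers in the results below was not tested.

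No probe set passed in the comparison of LNCap ERG with LNCap Vector. When limma p-values were adjusted by Benjamini-Hochberg across the 39464 probe sets, the share called at an adjusted p under 0.05 was 0%, and the ETS factors had 0 of 40. At an unadjusted p under 0.05, 2 of the 40 (5%) were higher in LNCap ERG, where 4.3% of all probe sets were, and 6 (15.0%) were lower, where 4.41% of all were. By the methods' t-test, 0 of the 40 were higher and 3 lower at this level, and none after adjustment, where 7.34% of all probe sets passed this test in either direction. In 6 of the 40 (15.0%) both LNCap ERG arrays lay above both LNCap Vector arrays, against 18.9% of all probe sets, and in 13 (32.5%) both lay below, against 20.1%. All 5 ETV1 probe sets are among these 13, and without ETV1 the share was 8 of 35 (22.9%). Probe sets of 1 gene read the same RNA and are not independent. The median log2 fold change was -0.04 over the 40 and -0.00137 over all probe sets.

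**Figure D2:**
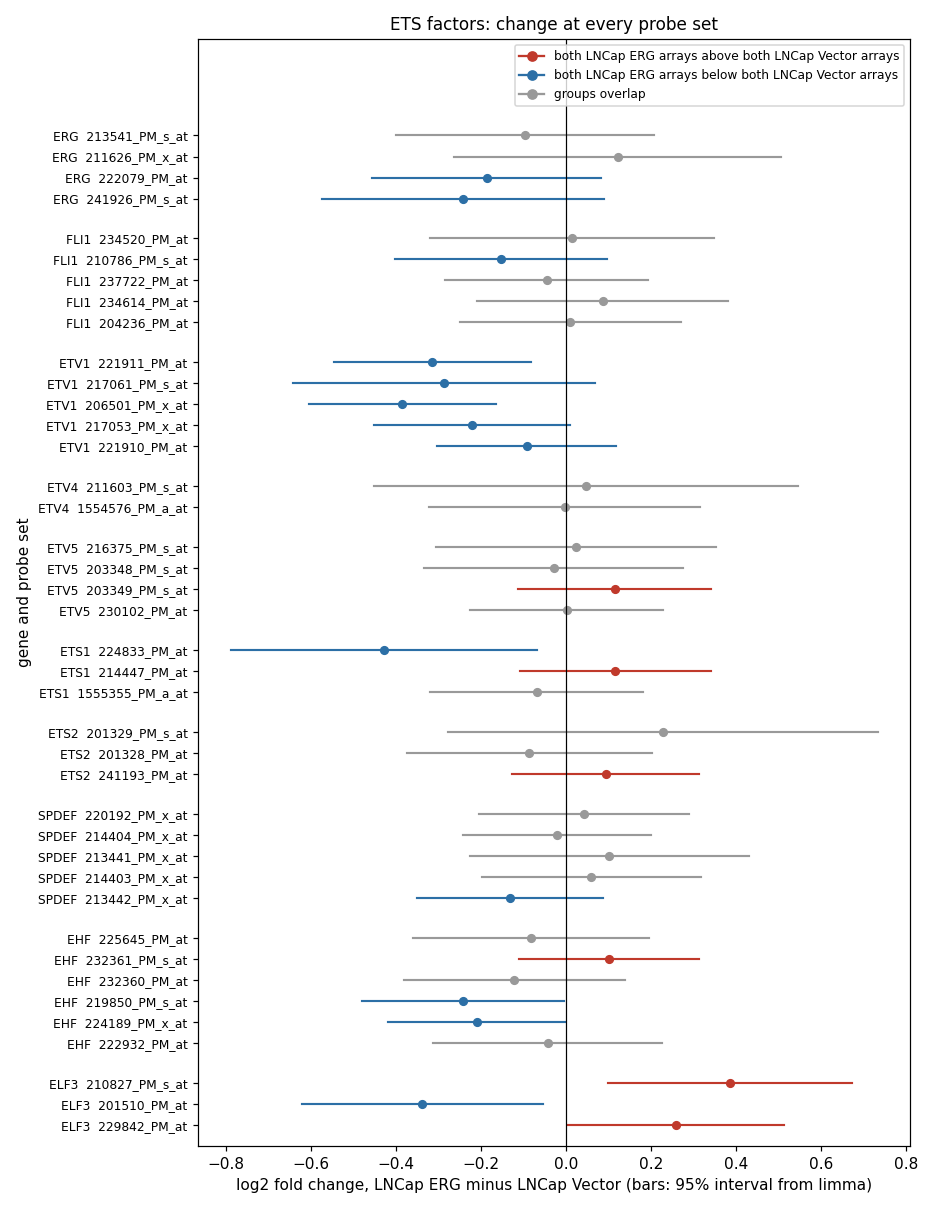
Log2 fold change, LNCap ERG minus LNCap Vector (x axis), of every probe set of the 10 ETS factors (y axis), with 95% intervals from limma. Blue marks probe sets with both LNCap ERG arrays below both LNCap Vector arrays (13), red those with both above (6), grey those whose groups overlap (21); all 5 ETV1 probe sets are blue, while ELF3 has both colours.

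ERG, the factor the virus was made to express, was dim on all 4 arrays, and no ERG probe set passed or had an unadjusted p under 0.05. At its brightest probe set (213541_PM_s_at) the log2 intensities were 3.42 and 3.29 in LNCap ERG arrays and 3.58 and 3.32 in LNCap Vector arrays, so the groups overlapped. The log2 fold change was -0.10 (95% interval -0.40 to 0.21, adjusted p = 0.87). At 211626_PM_x_at the LNCap ERG arrays read 3.47 and 3.06 and the LNCap Vector arrays 3.21 and 3.07, again overlapping. At 222079_PM_at (2.96 and 3.18 in LNCap ERG, 3.26 and 3.26 in LNCap Vector) and 241926_PM_s_at (2.65 and 2.67 in LNCap ERG, 3.07 and 2.73 in LNCap Vector) both LNCap ERG arrays were the lower ones. The upper ends of the 4 intervals were 0.08 to 0.51, which leaves no room for a rise of 1 on the log2 scale at any of them. The ERG readings thus do not show the rise that the label implies, and every direction given here is that of the label. Whether the probe sets read the part of ERG that the virus carries is not given in the sources used here.

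FLI1, the closest relative of ERG and itself the partner of EWSR1 in Ewing sarcoma, was dim at all 5 probe sets (2.65 to 3.98 over the 4 arrays). Its brightest, 234520_PM_at, read 3.98 and 3.67 in LNCap ERG arrays and 3.88 and 3.73 in LNCap Vector arrays. The groups overlapped at 4 of the 5, and the log2 fold changes ran from -0.15 to 0.09 (adjusted p of 0.71 to 0.99). A further probe set is annotated to both FLI1 and EWSR1 and was therefore left out of the counts. It read 3.15 and 3.22 in LNCap ERG arrays and 3.20 and 3.09 in LNCap Vector arrays, also dim and overlapping.

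ETV1 was lower in LNCap ERG at every probe set. At its brightest, 221911_PM_at, the log2 intensities were 10.57 and 10.67 in LNCap ERG arrays and 10.98 and 10.88 in LNCap Vector arrays, above 6.62 on all 4 arrays and without overlap between the groups. The group means were 10.62 ± 0.07 in LNCap ERG and 10.93 ± 0.07 in LNCap Vector (SD, n = 2 each), 1.24-fold lower in LNCap ERG (log2 fold change -0.31, 95% interval -0.55 to -0.08, unadjusted p = 0.017 and adjusted p = 0.51 from limma). The difference is thus larger than the spread between the arrays of a group but did not pass over all probe sets.

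The other ETV1 probe sets had the same sign and were dimmer. At 206501_PM_x_at the LNCap ERG arrays read 5.72 and 5.63 and the LNCap Vector arrays 6.05 and 6.08 (log2 fold change -0.39, unadjusted p = 0.0057, adjusted p = 0.48), the smallest p among the 40 probe sets. At 217061_PM_s_at the values were 5.79 and 5.92 in LNCap ERG and 5.97 and 6.32 in LNCap Vector (log2 fold change -0.29, and -0.11 without the second LNCap Vector array or -0.47 without the first). At 217053_PM_x_at they were 5.60 and 5.67 in LNCap ERG and 5.91 and 5.80 in LNCap Vector (log2 fold change -0.22), and at 221910_PM_at 4.53 and 4.51 in LNCap ERG and 4.59 and 4.63 in LNCap Vector (log2 fold change -0.09). Both LNCap ERG arrays were below both LNCap Vector arrays each time, the first LNCap ERG array being the lower of its pair at 3 of the 5. The last 3 had adjusted p-values of 0.59 to 0.80. Probe sets with x in their name hold probes that may also match unrelated transcripts, and those with s may match several transcripts. The 2 ETV1 probe sets of the plain kind are the brightest and the dimmest of the 5.

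Of the 641 genes with exactly 5 probe sets, 5 (0.78%) had all 5 lower without overlap, and ETV1 is 1 of these 5. All 5 higher without overlap was found in 3 of the 641 (0.468%). This count was made after the pattern had been seen in ETV1. Averaged over its probe sets, ETV1 differed by -0.26 ± 0.07 (log2 fold change ± standard error, adjusted p = 0.38 over genes). With any 1 array left out the brightest ranged from -0.36 to -0.27 and the dimmest from -0.11 to -0.074. The widest range was that of 217061_PM_s_at, from -0.47 to -0.11. The sign stayed negative at all 5, but groups that do not overlap cannot change sign when 1 array is left out. The kept sign is therefore no further check. Without the first LNCap ERG or the first LNCap Vector array the unadjusted limma p of the brightest was 0.087 and 0.081. The sign was also negative in every other alternative run, with adjusted p-values of 0.11 to 0.67 for the brightest while all 4 arrays were kept. Among those runs, only probe set means, quantile normalization again and housekeeping centring could change the log2 fold change.

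**Figure D3:**
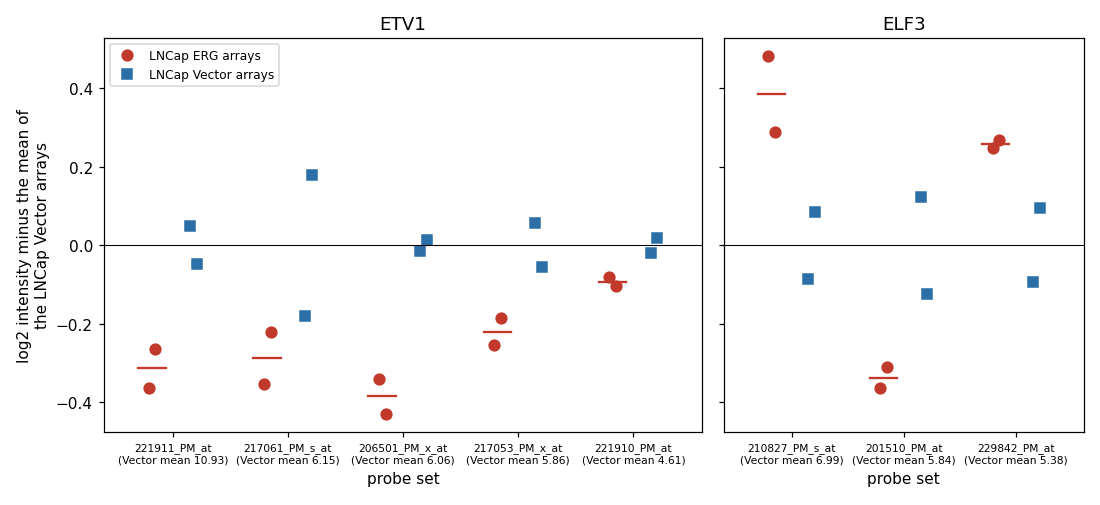
Log2 intensity of each array minus the mean of the LNCap Vector arrays (y axis) for the 5 probe sets of ETV1 and the 3 of ELF3 (x axis, with each LNCap Vector mean). Circles are LNCap ERG arrays with a line at their mean, squares LNCap Vector arrays; the circles lie below the squares at every ETV1 probe set, and at ELF3 they lie above at 210827_PM_s_at and 229842_PM_at and below at 201510_PM_at.

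ETV1 and ELF3 are the factors whose brightest, well expressed probe sets had an unadjusted p under 0.05, and the reference DNA before their starts is shown for the GGAA core that ETS factors bind. The windows are the 250 bases before the outermost RefSeq start in GRCh38.p14, written 5′ to 3′ on the gene's strand, with GGAA or its reverse complement TTCC in capitals. That of ETV1 is chr7:13991426-13991675 on the minus strand and that of ELF3 is chr1:202010337-202010586 on the plus strand.
ETV1: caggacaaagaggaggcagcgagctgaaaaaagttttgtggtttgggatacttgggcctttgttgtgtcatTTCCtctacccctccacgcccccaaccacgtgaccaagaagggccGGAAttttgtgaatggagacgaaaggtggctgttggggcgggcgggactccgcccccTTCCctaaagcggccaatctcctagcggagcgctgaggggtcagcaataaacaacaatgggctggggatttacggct
ELF3: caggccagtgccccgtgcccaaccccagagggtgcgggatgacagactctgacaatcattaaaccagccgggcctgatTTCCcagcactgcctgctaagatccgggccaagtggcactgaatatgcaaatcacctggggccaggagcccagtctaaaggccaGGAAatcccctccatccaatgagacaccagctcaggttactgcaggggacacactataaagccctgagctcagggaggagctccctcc
The core stands 3 times in the ETV1 window and 2 times in the ELF3 window. It is common, being found on either strand in 92.7% of all 35116 such windows, with a median of 3 each. The longer CCGGAA, which contains the core, is in 14.5% of all windows. It is in this ETV1 window, where it ends with the second run of capitals, and not in that of ELF3. RefSeq windows were at hand for 6 of the 10 factors (ERG, ETV1, ETS2, SPDEF, EHF and ELF3), 16 in all, of which 15 hold the core. CCGGAA is in 3 of the 6 ETV1 windows and in none of the windows of the other 5 factors. Of these 3, chr7:13990703-13990952 and chr7:13990707-13990956 are nearly the same stretch, so the windows are not separate counts. These are matches of letters in the reference, not measured binding, and which ETV1 start the rearranged LNCaP gene uses was not measured.

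ETV4 and ETV5, the other PEA3 factors, were dim, and their groups overlapped at 5 of 6 probe sets. ETV4 at 211603_PM_s_at read 4.61 and 4.01 in LNCap ERG arrays, which enclose the 4.23 and 4.30 of LNCap Vector arrays (log2 fold change 0.05, 95% interval -0.45 to 0.55). Its other probe set read 3.99 and 3.77 in LNCap ERG and 3.77 and 3.99 in LNCap Vector. ETV5 at 216375_PM_s_at read 3.87 and 3.70 in LNCap ERG and 3.91 and 3.62 in LNCap Vector (log2 fold change 0.02, 95% interval -0.31 to 0.35), and its groups overlapped at 3 of 4 probe sets. At the fourth, 203349_PM_s_at, both LNCap ERG arrays were higher (3.16 and 3.23, against 3.03 and 3.13 in LNCap Vector), with a log2 fold change of 0.11 and an adjusted p of 0.76. Whether the change of ETV1 differs from those of ETV4 and ETV5 was not tested.

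ETS1 and ETS2, factors that respond to RAS and ERK signalling in many cells, were dim as well. ETS1 at its brightest probe set, 224833_PM_at, read 3.36 and 3.62 in LNCap ERG arrays and 3.78 and 4.07 in LNCap Vector arrays, without overlap (log2 fold change -0.43, 95% interval -0.79 to -0.07, unadjusted p = 0.027, adjusted p = 0.54). All of these values are far below 6.62, and the other ETS1 probe sets had 0.12 (both LNCap ERG arrays higher) and -0.07 (overlapping). ETS2 at 201329_PM_s_at read 4.94 and 4.33 in LNCap ERG arrays and 4.44 and 4.38 in LNCap Vector arrays, where the first LNCap ERG array stands alone. Its log2 fold change was 0.23 with that array and -0.076 without it, and the other 2 probe sets had -0.09 and 0.09.

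SPDEF, a factor of prostate luminal and other secretory epithelium, averaged above 6.62 at 3 of its 5 probe sets, and the groups overlapped at these 3. At 220192_PM_x_at it read 9.20 and 9.09 in LNCap ERG arrays and 9.17 and 9.03 in LNCap Vector arrays (log2 fold change 0.04, 95% interval -0.20 to 0.29, adjusted p = 0.94). At 214404_PM_x_at it read 8.65 and 8.61 in LNCap ERG and 8.69 and 8.60 in LNCap Vector, and at 213441_PM_x_at 8.29 and 7.99 in LNCap ERG and 8.11 and 7.96 in LNCap Vector. Of the 2 dimmer probe sets 1 overlapped, and at the other, 213442_PM_x_at, both LNCap ERG arrays were lower (4.34 and 4.29, against 4.48 and 4.41 in LNCap Vector, adjusted p = 0.72). The log2 fold changes of all 5 ran from -0.13 to 0.10. All 5 are of the x kind.

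EHF, an epithelial factor known as a tumour suppressor in prostate, had the highest reading of its 6 probe sets at 225645_PM_at. This one read 11.97 and 12.21 in LNCap ERG arrays and 12.15 and 12.19 in LNCap Vector arrays (log2 fold change -0.08, 95% interval -0.36 to 0.20, adjusted p = 0.88), and the groups overlapped. The middle probe sets did not move together. At 232361_PM_s_at EHF read 8.90 and 8.86 in LNCap ERG and 8.80 and 8.77 in LNCap Vector (0.10, both higher). At 232360_PM_at it read 8.46 and 8.31 in LNCap ERG and 8.57 and 8.43 in LNCap Vector (-0.12, overlapping). At 219850_PM_s_at it read 7.16 and 7.12 in LNCap ERG and 7.31 and 7.46 in LNCap Vector (-0.24, unadjusted p = 0.048, adjusted p = 0.57 from limma). At 224189_PM_x_at it read 6.97 and 6.96 in LNCap ERG and 7.17 and 7.17 in LNCap Vector (-0.21, unadjusted p = 0.049, adjusted p = 0.57 from limma), both lower without overlap. Of the 6 probe sets, 5 had a log2 fold change below 0 and 1 above. The mean over all 6 had a log2 fold change of -0.10 (adjusted p = 0.73 over genes).

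ELF3, an epithelial factor induced in inflamed and differentiating epithelium, gave opposite readings at its probe sets. At 210827_PM_s_at, the brightest, it read 7.48 and 7.28 in LNCap ERG arrays and 6.91 and 7.08 in LNCap Vector arrays, 1.31-fold higher in LNCap ERG (log2 fold change 0.39, 95% interval 0.10 to 0.67, unadjusted p = 0.017, adjusted p = 0.51 from limma). At 229842_PM_at it was also higher, at 5.62 and 5.65 in LNCap ERG and 5.28 and 5.47 in LNCap Vector (0.26, unadjusted p = 0.047). At 201510_PM_at it was lower, at 5.48 and 5.53 in LNCap ERG and 5.96 and 5.72 in LNCap Vector (-0.34, unadjusted p = 0.027). None of the 3 overlapped between the groups, and none passed after adjustment (adjusted p of 0.51 to 0.57). Probe sets on both sides of 0 at an unadjusted p under 0.05 were rare, at 75 of the 10098 genes with several probe sets (0.743%), and ELF3 is 1 of the 75, counted after its pattern had been seen. These calls were not stable, since the unadjusted p was 0.097 to 0.12 for all 3 probe sets by the methods' t-test. Without the first LNCap Vector array limma gave 0.079, 0.13 and 0.22 for 210827_PM_s_at, 201510_PM_at and 229842_PM_at, with log2 fold changes of 0.30, -0.21 and 0.16. The signs could not turn with 1 array left out, because the groups did not overlap at any of the 3. No single direction can be given for this gene. The mean of its 3 probe sets had a log2 fold change of 0.10 (adjusted p = 0.72 over genes), and the difference between the probe sets was not tested.

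The rest of the ETS family was read at 1 probe set per gene, the brightest, for 17 further genes. None passed over all probe sets. At an unadjusted p under 0.05, 1 of the 17 was higher and 0 were lower, where 4.99% of all genes were higher and 3.49% lower. The 1 is FEV, named after its value was seen, which was dim (3.61 and 3.67 in LNCap ERG, 3.42 and 3.41 in LNCap Vector). ETV6, also named after its values were seen, averaged below 6.62. It was higher without overlap (0.21 to 0.23, adjusted p of 0.60 to 0.66 from limma) at every probe set but 239364_PM_at (-0.14, overlapping). GABPA, named likewise, had -0.22 without overlap and -0.15 with overlap. Over the 17 genes' 40 probe sets, 7 were higher and 7 lower without overlap (17.5% each, against 18.9% and 20.1% of all). The median log2 fold change was -0.00652 over the 17 and 0.00783 over all genes.

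Of these 17, 5 averaged above 6.62, and the groups of 4 of them overlapped. ELK4, a partner of serum response factor, read 8.72 and 9.04 in LNCap ERG and 8.88 and 9.03 in LNCap Vector. ELF1 and ELF2, widely expressed factors, had log2 fold changes of -0.00652 and 0.00202, and ETV3, a repressor, had 0.04. The other ELF2 probe sets, also above 6.62, had -0.16 (lower without overlap) and 0.15 (overlapping). ELK1, also a partner of serum response factor, read 7.47 and 7.69 in LNCap ERG and 7.79 and 7.79 in LNCap Vector, lower without overlap (log2 fold change -0.21, adjusted p = 0.64). Its other probe sets were dimmer and had values of -0.04 to 0.33. The highest, 217039_PM_x_at, was higher in LNCap ERG without overlap (unadjusted p = 0.038, adjusted p = 0.55 from limma). The ELK1 probe sets thus gave opposite readings.

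**Figure D4:**
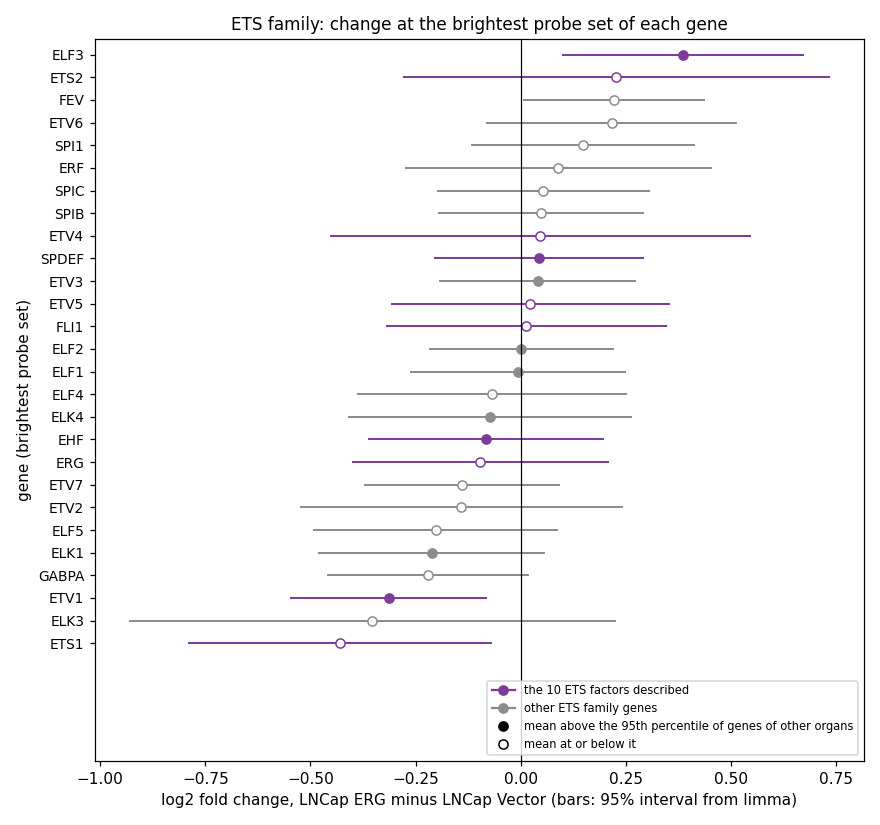
Log2 fold change, LNCap ERG minus LNCap Vector (x axis), at the brightest probe set of the 27 measured ETS genes (y axis, ordered by value), with 95% intervals from limma. Purple marks the 10 factors described and grey the other 17, and filled points average above 6.62; among filled points ELF3 (0.39) and ETV1 (-0.31) lie at the ends.

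A pair of further lists, drawn up from general knowledge of ETS factors, were read the same way. Both were chosen with earlier results of these data known, so their shares are a description only. The first holds 20 genes reported together with ERG in prostate tumours or cells, and all 20 were measured. None passed after adjustment. At an unadjusted p under 0.05, 4 were higher in LNCap ERG (20.0%, against 4.99% of all genes) and 3 lower (15.0%, against 3.49%). VIM, the mesenchymal filament vimentin, read 9.01 and 9.03 in LNCap ERG arrays and 8.52 and 8.42 in LNCap Vector arrays (log2 fold change 0.55, adjusted p = 0.38). TFF3, a secreted trefoil peptide, read 7.11 and 7.10 in LNCap ERG and 6.56 and 6.50 in LNCap Vector (0.58, adjusted p = 0.33). These 2 were higher in both LNCap ERG arrays, and by more than any of the 40 probe sets of the ETS factors. Another VIM probe set was dim and overlapped (-0.11).

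YAP1, the Hippo pathway coactivator, had 0.21 (adjusted p = 0.69), the histone methyltransferase EZH2 0.09 (adjusted p = 0.79) and the deacetylase HDAC1 -0.03 (adjusted p = 0.95). YAP1 and EZH2 were also higher in both LNCap ERG arrays, and HDAC1 lower. The other YAP1 probe sets had 0.25 and 0.19, likewise higher without overlap (adjusted p of 0.54 and 0.61 from limma). Over all genes, 21.7% were higher and 19.1% lower without overlap. The others at an unadjusted p under 0.05, named after their values were seen, averaged below 6.62: MMP9 (0.29) and ARHGDIB (0.23) were higher, HPGD (-0.69), FZD4 (-0.40) and SOX9 (-0.39) lower. The other ARHGDIB probe sets had -0.11 (lower without overlap) and 0.16 (overlapping). HPGD, which breaks down prostaglandins, read 4.86 and 5.46 in LNCap ERG and 5.77 and 5.93 in LNCap Vector, lower without overlap. The second probe set of SOX9, a transcription factor, read 3.33 and 3.43 in LNCap ERG and 4.19 and 4.01 in LNCap Vector, also lower (-0.71). The median log2 fold change of the list was 0.05.

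The second list holds regulators of ETV1, ETV4 and ETV5 and feedback genes of ERK signalling, of which 14 were measured. None passed. The brightest probe set of each gene was counted. At an unadjusted p under 0.05, 1 of 14 was higher (7.14%, against 4.99% of all genes) and 0 were lower (against 3.49%). The 1 is DUSP4, a phosphatase that acts on ERK, at 9.45 and 9.46 in LNCap ERG and 9.26 and 9.16 in LNCap Vector (log2 fold change 0.24, adjusted p = 0.55). SPRED2, an inhibitor of RAS signalling, had 0.20 (adjusted p = 0.67), read at 6.89 and 7.06 in LNCap ERG and 6.69 and 6.87 in LNCap Vector. COP1, the ubiquitin ligase subunit that marks ETV1 for degradation, had 0.01 with overlapping groups (7.57 and 7.37 in LNCap ERG, 7.37 and 7.54 in LNCap Vector). The other COP1 probe set, also above 6.62, was lower in LNCap ERG without overlap (-0.12, adjusted p = 0.78 from limma). ATXN1L, a cofactor of the PEA3 repressor CIC, had 0.11 with overlap, SPRY1, an ERK feedback inhibitor, 0.02, and MAPK3, which is ERK1, -0.02. The median over the 14 was 0.01.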

How the data were processed

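RNA of 4 samples was measured on Affymetrix arrays, 2 LNCap ERG and 2 LNCap Vector. The authors deposited an intensity per probe set, made with dChip and RMAexpress. For these tools neither version nor settings were found in the labels or methods. Their scale is not stated. Medians of 14.0 to 14.4 and maxima of 14962 to 15344 are those of linear values, and log2 was taken. Of 51965 probe sets, 39466 name 1 gene in the platform annotation, 838 several and 11661 none; only the first kind was used, less 2 with a missing value. The array number limits the precision, since arrays have no read depth.

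Each probe set was fitted with limma 3.58.1 in R 4.3.3 (lmFit and eBayes, 2 residual and 3.50 prior degrees of freedom) on all 4 arrays, with Benjamini-Hochberg adjustment over 39464 probe sets and a threshold of 0.05. An exact permutation test of 2 against 2 arrays cannot go below p = 0.333. The scripts were tested on simulated data. Promoter windows come from RefSeq (GRCh38.p14), read with Python 3.11.15, and no other coordinates are used because no build is named for the array.

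The 10 factors and the gene lists were chosen with earlier results of these data known. Named from the lists are the 3 highest and 3 lowest log2 fold changes among genes whose brightest probe set averages above 6.62, and any gene past the threshold. The alternatives were trended and robust moderation, 1 probe set per gene, probe set means per gene, plain probe sets, leaving out those dimmer than the median, a second quantile normalization, centring on 19 housekeeping genes, a replicate block, the methods' t-test (Student) and leaving out each array.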

Additional observations from a re-analysis of the deposited data

How the results depend on the processing

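With 2 arrays a group and 30 of 40 probe sets averaging below 6.62, precision is limited. None of the 10 factors passed an adjusted p of 0.05 under any alternative run. Over all features, 0 were higher and 0 lower past it with every probe set tested, 49 and 39 with trended and robust moderation, 1 and 1 with 1 probe set per gene, 6 and 8 with probe set means per gene, 1 and 1 with plain probe sets, 1 and 1 without dim probe sets, and 4 and 6 with housekeeping centring. Quantile normalization again, the replicate block, the methods' t-test and each array left out gave 0 and 0.

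The 2 higher and 6 lower probe sets of the factors at an unadjusted p under 0.05 became 1 higher with trended and robust moderation (6 lower), 1 and 2 with 1 probe set per gene (10 tested), 0 and 1 with means (10 tested), 1 and 3 with plain probe sets (17 tested) and 0 and 3 with the methods' t-test. They were 2 and 6 without dim probe sets (20 tested) and 2 and 4 with quantile normalization again or housekeeping centring. With single arrays left out they were 0 to 3 higher and 1 to 4 lower. Over all features, in either direction, 8.70% had such a p with every probe set tested and 5.29% to 12.9% under the alternatives. Same-numbered arrays did not deviate together (r = 0.073), so the numbers are not known to pair the arrays; with the replicate block there were 1 higher and 3 lower.

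Of 124 values of the factors' brightest probe sets under the alternatives, 13 had the opposite sign. Trended and robust moderation, 1 probe set per gene, leaving out dim probe sets, the replicate block and the methods' t-test cannot change these fold changes. Their values repeat the main ones, so 13 of 124 understates how easily the signs turned. With plain probe sets ELF3 had -0.34 and ETS2 -0.086, each then read at another probe set, and with means FLI1 had -0.018. With single arrays left out the log2 fold changes were -0.23 to 0.035 for ERG, -0.14 to 0.17 for FLI1, -0.25 to 0.34 for ETV4, -0.12 to 0.17 for ETV5, -0.076 to 0.53 for ETS2, -0.024 to 0.11 for SPDEF and -0.20 to 0.038 for EHF. The array that turned the sign was the first LNCap ERG array for FLI1, ETV4, ETV5, ETS2, SPDEF and EHF, the first LNCap Vector array for ERG and the second for FLI1, ETV5 and SPDEF. The ranges were -0.36 to -0.27 for ETV1, -0.57 to -0.28 for ETS1 and 0.29 to 0.48 for ELF3. At these brightest probe sets the groups did not overlap, so leaving out 1 array could not turn the sign. Their kept signs are therefore no further check.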
